A study of Homo sapiens with 6 samples.

Results

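Nuclear hormone receptors were examined in SK-Hep1 cells given an inhibitor of the microRNA miR-21. The members were 41 listed receptor genes, found on the array through the platform annotation. Of these, 34 had at least 1 probe set annotated to that gene alone, and together they had 119 of the 54675 probe sets on the array. A receptor counted as expressed when 1 of its probe sets reached a mean log2 value of at least 4 over the 6 arrays. By this filter 19 receptors were expressed, with 46 probe sets, and 15 receptors were not, and 73 probe sets lay below the filter. The other 7 listed genes (NR1H2, NR1H4, HNF4A, NR1I2, NR1D1, NR2F2 and NR0B1) had no probe set of their own in the annotation used and were not analysed here.

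SK-Hep1 is an established human cell line derived from a liver adenocarcinoma. The anti-miR-21 group was transfected with 20 nM of an inhibitor of miR-21 and the mock group received PBS without the inhibitor, with a lipid transfection step described for both, and each group had 3 arrays, labelled as biological replicates. Cells were plated 24 hours before transfection and collected 16 hours after it, and RNA that the labels call total RNA was biotin-labelled and hybridised, although the collection protocol cites an Argonaute immunoprecipitation. No control oligonucleotide is named in the labels, so the effect of carrying any oligonucleotide and that of blocking miR-21 cannot be told apart. Values are log2 expression after GCRMA, a method that corrects background from probe sequence and places each probe set on a log2 scale. Levels of different probe sets are not comparable, because probes differ in how well they bind. Whether the hybridised RNA was that of the whole cells or the Argonaute-bound part is not settled by the labels, so a value may stand for either. In both cases fewer cells that express a gene and less of its RNA per cell cannot be told apart.

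The arrays of the 2 groups lay apart on the first principal component, which held 50.4% of the variance. The anti-miR-21 arrays lay at 3.51, 20.11 and 19.63 and the mock arrays between -19.95 and -7.25, so the anti-miR-21 array numbered 1 stood nearest to mock. Of 9 hepatocyte markers named on the array, 3 passed the filter. SERPINA1, a secreted protease inhibitor, had a mean of 11.92 and AFP, the fetal liver protein alpha-fetoprotein, a mean of 4.22, whereas albumin (ALB) lay at 2.85, below the filter. Of 8 mesenchymal markers 6 passed, among them the intermediate filament VIM at 15.71 and fibronectin (FN1) at 13.67. Of 8 endothelial markers 2 passed, TEK at 4.66 and CLDN5 at 4.11, and of 5 blood cell markers 1 passed, CD14 at 5.30. No marker in these 4 lists differed between the groups at an adjusted p under 0.05.

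Nuclear receptors are transcription factors that bind DNA through a pair of zinc fingers and bind a small ligand, such as thyroid hormone, retinoic acid, vitamin D, a steroid or a lipid, through a separate domain. Many bind as heterodimers with a retinoid X receptor to copies of the half-site AGGTCA. Without ligand several of them recruit corepressors, and with ligand coactivators. In liver they govern lipid, bile acid and glucose metabolism, and orphan members act without a known hormone.

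The sequence that the inhibitor addresses and the promoter stretches of the receptors were taken from RefSeq (GRCh38.p14). The mature microRNA is given with its seed, bases 2 to 8, in capitals. It lies at chr17:59841273-59841294 on the plus strand.
hsa-miR-21-5p: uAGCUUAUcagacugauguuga
Windows of 300 bases, from 250 bases before to 50 bases after a gene's start, were searched on both strands for AGGTCA. Of 35116 windows over all genes 13.8% held it. Windows were found for 37 listed receptors, and 15 of their 89 windows (16.9%) held it. By gene, 10 of these 37 receptors had at least 1 window with the motif, beside 4513 of all 27305 genes. The receptors had more windows per gene, so the counts by gene are not like for like. Among expressed receptors 17 had a window, and 3 of their 38 windows (7.9%) held the motif, a smaller share than over all windows. The stretches of 30 bases around these 3 matches follow, on the plus strand, with the motif in capitals. They are shown because their genes are receptors whose own windows hold the letters of a half-site, and binding was not measured. The RARB stretch is chr3:25340740-25340769, that of NR1H3 chr11:47248150-47248179 and that of RARA chr17:40308940-40308969.
RARB: agaaggaagtAGGTCAaagcctggcaagga
NR1H3: gtttgcctatAGGTCAgaagcatccccttg
RARA: ctcctgtttcAGGTCAtcctatcctcgagt
The 250 bases before the more upstream of the 2 THRB starts in that source, shown because THRB is the receptor gene that rose, are at chr3:24495709-24495958 and are written along the minus strand, on which the gene lies. Neither the 2 THRB windows nor the 1 NR2C1 window held AGGTCA.
THRB: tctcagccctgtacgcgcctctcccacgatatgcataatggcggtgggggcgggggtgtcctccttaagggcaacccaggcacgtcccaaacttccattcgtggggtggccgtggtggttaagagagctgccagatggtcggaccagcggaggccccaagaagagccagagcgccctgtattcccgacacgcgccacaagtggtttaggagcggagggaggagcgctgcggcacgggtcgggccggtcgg

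Each expressed receptor was compared between anti-miR-21 and mock arrays with limma, fitted over all 22408 probe sets that passed the filter, with Benjamini-Hochberg adjusted p-values and a threshold of 0.05. THRB rose, 1 of the 4 expressed probe sets of NR2C1 fell, and the other 17 expressed receptors had no probe set that passed. At the level of probe sets, 2 of 46 were higher and 1 was lower. Over all probe sets tested 1.1% were higher and 1.07% lower, 2.17% in either direction. With each gene represented by its probe set of highest mean, 1 of 19 receptors was higher and 1 lower. Over all 10848 genes 0.913% were higher and 1.22% lower, 2.13% in either direction. Of the 16 receptors with several expressed probe sets, THRB and NR2C1 had at least 1 that passed, as did 4.92% of all such genes.

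Counting both directions together, receptor probe sets separated the arrays about as often as other probe sets did. The 3 anti-miR-21 arrays lay above the 3 mock arrays in 10 of 46 and below them in 1, against 11.4% and 12.6% of all probe sets, 24% in either direction. By direction, the receptor share was larger above mock and smaller below it. Probe sets of 1 gene are not independent, and VDR, THRB and PPARA each gave more than 1 of the 10. Of the 19 representatives 3 lay above and 1 below, against 25.5% of all genes in either direction. An unadjusted p under 0.05 was found for 8 of the 46, against 17.8% of all probe sets. The median log2 fold change over the receptor probe sets was 0.02, and over all probe sets it was -0.003. Over representative probe sets the median was -0.04 for receptors and -0.02 for all genes.

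**Figure D1:**
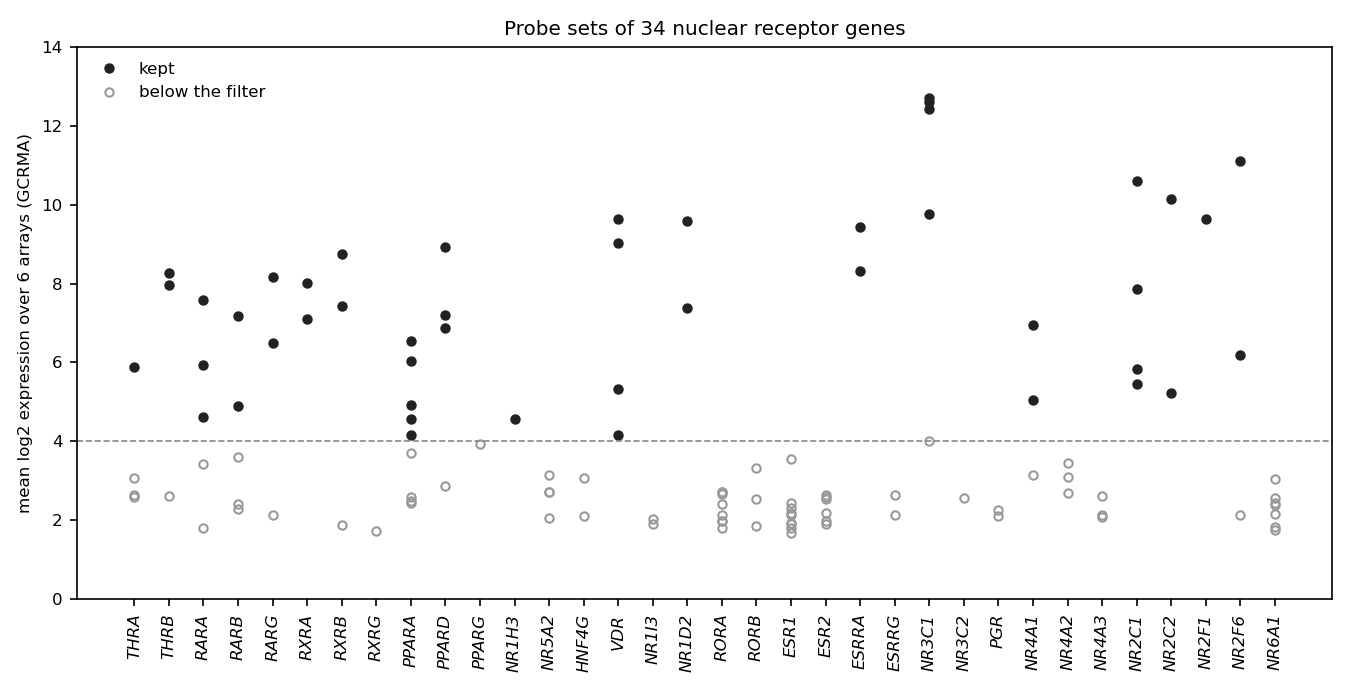
Mean log2 expression (GCRMA) over the 6 arrays of every probe set of the 34 receptor genes, 1 column a gene. Filled points are the 46 probe sets at or above the filter of 4 (dashed line) and open points the 73 below it, and heights of different probe sets are not comparable.

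**Figure D2:**
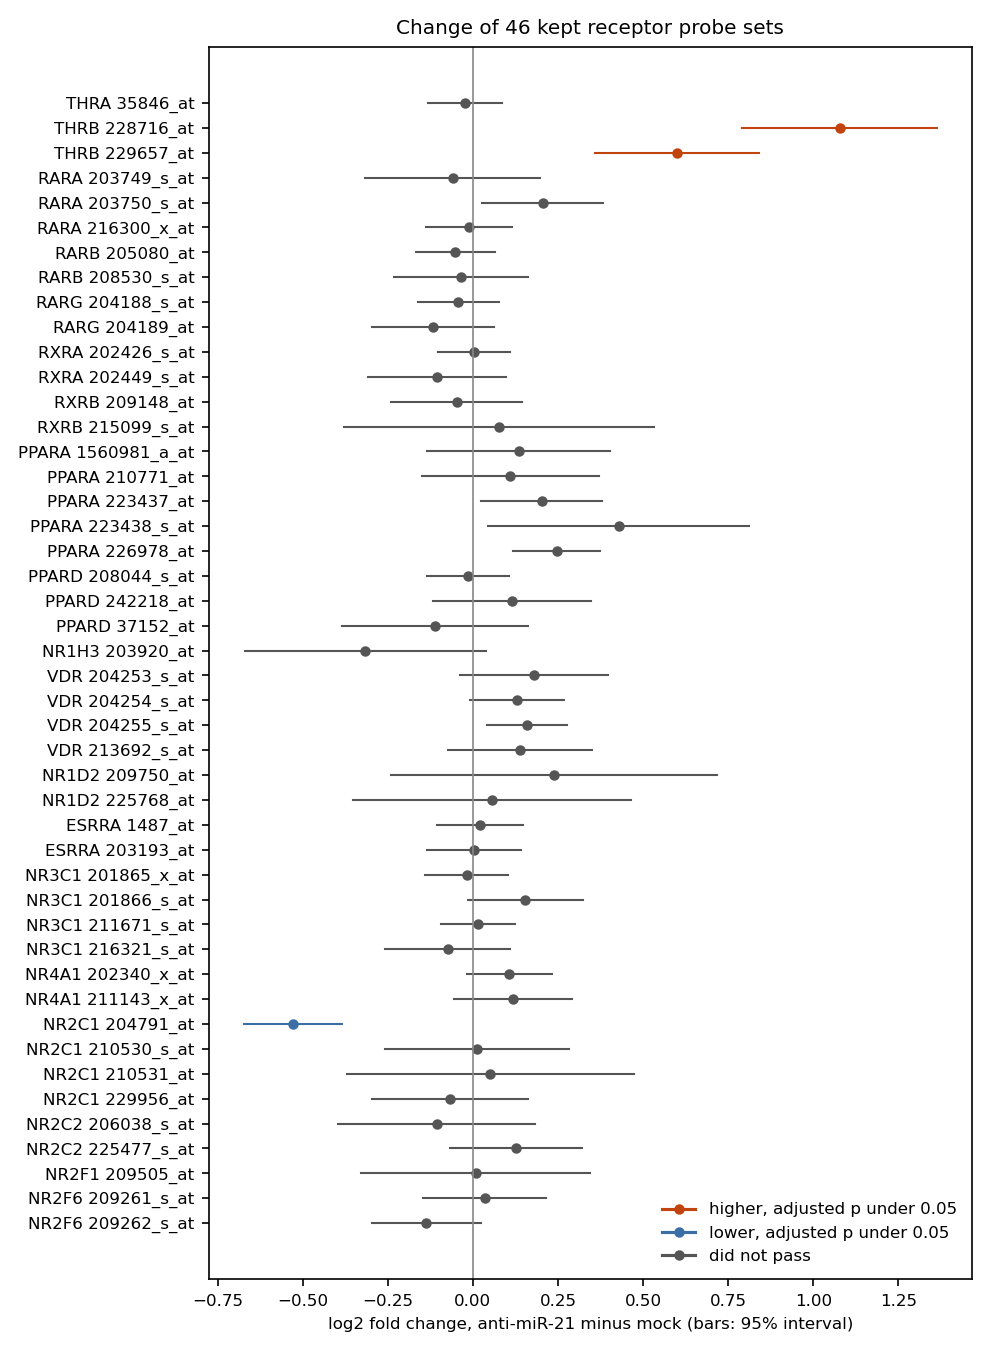
Log2 fold change of anti-miR-21 minus mock for the 46 expressed receptor probe sets, with 95% intervals from the limma fit, ordered by receptor class. The intervals of both THRB probe sets lie wholly to the right of 0 and that of NR2C1 204791_at wholly to the left. These 3 passed the test by adjusted p. The intervals are not adjusted, and some of RARA, PPARA and VDR also lie wholly to the right of 0 without passing.

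Thyroid hormone receptors bind the hormone T3 and regulate metabolic genes. THRB encodes the beta receptor, the form that predominates in liver. Its representative, the probe set 228716_at, had log2 values of 8.75, 8.89 and 8.79 in the anti-miR-21 arrays, against 7.98, 7.73 and 7.49 in the mock arrays. Every anti-miR-21 array, including replicate 1, lay above every mock array. The means were 8.81 ± 0.07 with anti-miR-21 and 7.73 ± 0.24 with mock (SD, n = 3 each), a rise of 2.11-fold (log2 fold change 1.08 ± 0.12 SE, limma adjusted p = 0.0118).

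The other expressed probe set of THRB, 229657_at, moved the same way. It had log2 values of 8.40, 8.28 and 8.13 with anti-miR-21, against 7.64, 7.84 and 7.53 with mock. The groups again did not overlap, and the difference was 1.51-fold (log2 fold change 0.60 ± 0.101 SE, limma adjusted p = 0.0384). Among the 5285 genes with several expressed probe sets, 10 (0.189%) had every such probe set higher at a limma adjusted p under 0.05. THRB was 1 of these 10. The receptors were chosen with earlier results of these data known, so this share is descriptive only. The difference between the changes of the 2 expressed THRB probe sets was 0.48 ± 0.138 SE and did not pass (limma, Simes p adjusted over genes 0.205). The third THRB probe set, 207044_at, had a mean of 2.62, below the filter, and was not tested.

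Leaving out single arrays, numbered by replicate, ended some of these calls. THRB 228716_at no longer passed when mock array 2 was left out (limma adjusted p = 0.0667), nor when anti-miR-21 array 2 or 3 was (0.0610 and 0.0578). Its log2 fold change stayed between 0.96 and 1.2 with any 1 array left out. Omitting these same 3 arrays left 38, 44 and 41 called genes over the whole table, against 231 with all arrays. Without mock array 1 or 3 the counts were 198 and 80, and without anti-miR-21 array 1 the count was 226. THRB 229657_at did not pass in any fit with 1 array omitted (log2 fold change 0.53 to 0.68, limma adjusted p from 0.0698 to 0.149).

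THRA encodes the alpha receptor for the same hormone. Its 1 expressed probe set, 35846_at, had log2 values of 5.83, 5.87 and 5.88 with anti-miR-21, against 5.90, 5.87 and 5.89 with mock. The groups overlapped, with a log2 fold change of -0.02 (95% interval -0.13 to 0.08, limma adjusted p = 0.824). NR1D1 lies partly opposite THRA on the other strand, and 3 probe sets listed both genes and were assigned to neither. The 1 of these that passed the filter had log2 values of 6.78, 6.77 and 6.75 with anti-miR-21, against 6.74, 6.68 and 6.99 with mock (limma adjusted p = 0.865).

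**Figure D3:**
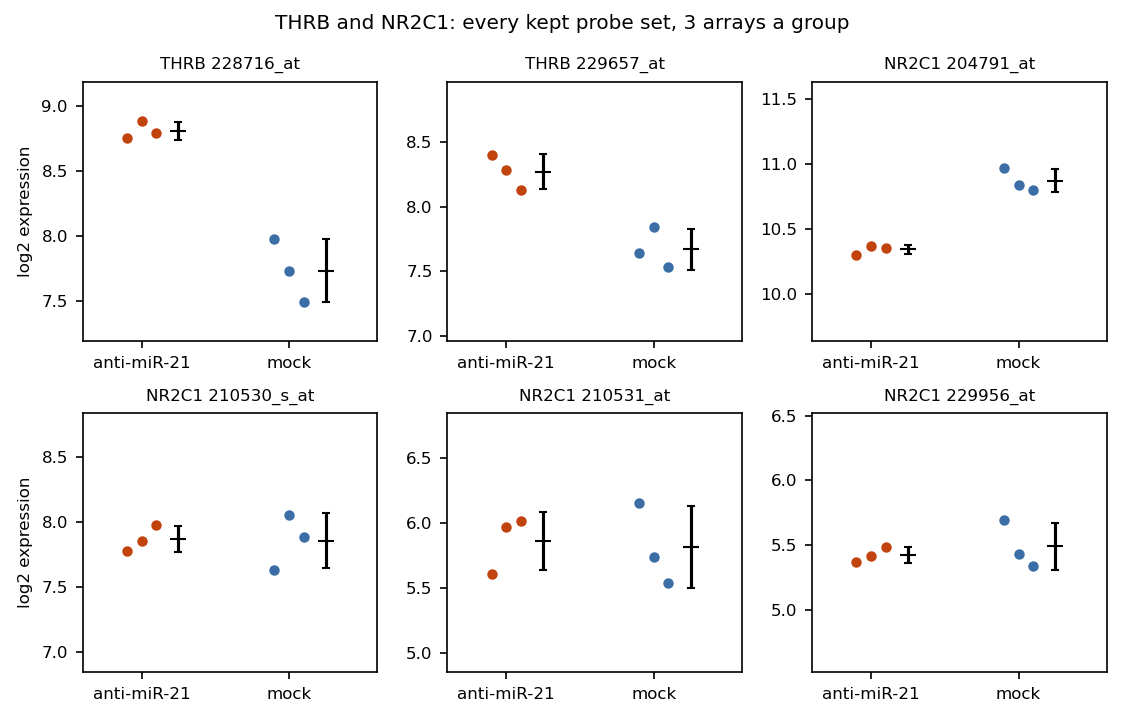
Log2 expression in each array (points), with mean and SD (n = 3) beside them, for the 2 expressed THRB and 4 expressed NR2C1 probe sets, anti-miR-21 left and mock right. Each panel spans 2 log2 units, and the groups separate in both THRB probe sets and in NR2C1 204791_at, and overlap in the other 3 NR2C1 probe sets.

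NR2C1, also called testicular receptor 2, is an orphan receptor that binds half-site repeats, often with its relative NR2C2. Its representative, 204791_at, had log2 values of 10.30, 10.37 and 10.36 with anti-miR-21, against 10.97, 10.84 and 10.80 with mock. All anti-miR-21 arrays lay below all mock arrays, a fall of 1.44-fold (10.34 ± 0.04 with anti-miR-21 and 10.87 ± 0.09 with mock, SD, n = 3 each, log2 fold change -0.53 ± 0.061 SE, limma adjusted p = 0.0128). The other 3 expressed probe sets did not follow. Probe set 210530_s_at had log2 values of 7.77, 7.85 and 7.97 with anti-miR-21, against 7.63, 8.05 and 7.89 with mock. For 210531_at and 229956_at the log2 fold changes were 0.05 and -0.07, with 95% intervals of -0.37 to 0.47 and -0.30 to 0.16.

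A test of whether probe sets of 1 gene changed differently gave NR2C1 an adjusted Simes p of 0.0492 (limma). Probe set 204791_at moved by -0.53 ± 0.073 SE relative to the mean of the other 3. Over all genes with several expressed probe sets 1.42% passed this test, and NR2C1 was the 1 receptor of 16 that did. At least 1 but not every expressed probe set was called, or the calls differed in direction, in 4.56% of these genes. The test no longer passed for NR2C1 in any fit that omitted 1 array (limma adjusted p from 0.0545 to 0.205), nor with the filter set at 6 (0.143) or without one (0.0723). With all 4 probe sets averaged, the log2 fold change of the gene was -0.13 (limma adjusted p = 0.398), so the fall was one of a single probe set. Omitting mock array 2 also ended the call of NR2C1 204791_at (limma adjusted p = 0.0674), as did omitting anti-miR-21 array 2 or 3 (0.0614 and 0.0635). NR2C2, testicular receptor 4, had log2 values of 10.17, 10.24 and 10.20 with anti-miR-21, against 10.24, 9.95 and 10.04 with mock, and the groups overlapped (limma adjusted p = 0.470).

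The receptors for retinoic acid and their RXR partners had no probe set that passed. RARA, RARB and RARG encode the retinoic acid receptors. The representative probe set of RARA had log2 values of 7.34, 7.71 and 7.60 with anti-miR-21, against 7.67, 7.48 and 7.67 with mock. That of RARB had 7.15, 7.18 and 7.13 with anti-miR-21, against 7.25, 7.17 and 7.19 with mock. That of RARG had 8.10, 8.12 and 8.19 with anti-miR-21, against 8.16, 8.17 and 8.20 with mock. All 3 overlapped between groups, with log2 fold changes of -0.06, -0.05 and -0.04, and a second RARA probe set, 203750_s_at, had 0.20 (95% interval 0.03 to 0.38, limma adjusted p = 0.222). RXRA and RXRB encode the common dimer partners, and their representative log2 fold changes were -0.11 and -0.05, with 95% intervals of -0.31 to 0.10 and -0.24 to 0.14. RXRG, with 1 probe set at a mean of 1.72, was below the filter.

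Among lipid sensors, PPARA came nearest to the threshold without passing it. PPARA encodes the fatty acid receptor that drives fatty acid oxidation in liver. Its representative, 226978_at, had log2 values of 6.68, 6.59 and 6.70 with anti-miR-21, against 6.38, 6.40 and 6.45 with mock. The groups did not overlap, the log2 fold change was 0.25 (95% interval 0.12 to 0.37) and the limma adjusted p was 0.0778, with values from 0.0611 to 0.255 over the alternatives. All 5 expressed PPARA probe sets had positive log2 fold changes, from 0.11 to 0.43. They report on 1 gene and are not independent of each other.

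PPARD, a broadly expressed relative, had log2 fold changes of -0.01, 0.12 and -0.11 in its 3 expressed probe sets. NR1H3 encodes the oxysterol receptor LXR alpha. It had log2 values of 4.48, 4.52 and 4.22 with anti-miR-21, against 4.76, 4.43 and 4.98 with mock, and overlapped (log2 fold change -0.32, 95% interval -0.67 to 0.04, limma adjusted p = 0.331). PPARG, the fat cell regulator, lay just under the filter at a mean of 3.94. NR5A2 and HNF4G, regulators of liver genes, were below it in every probe set, with highest means of 3.15 and 3.07.

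VDR encodes the vitamin D receptor. Its representative, 204254_s_at, had log2 values of 9.79, 9.69 and 9.63 with anti-miR-21, against 9.60, 9.54 and 9.57 with mock. Every anti-miR-21 array was above every mock array, by a mean of 0.13 (95% interval -0.01 to 0.27, limma adjusted p = 0.304). All 4 expressed VDR probe sets had positive log2 fold changes, from 0.13 to 0.18, and none passed. NR1I3, a receptor for foreign compounds, was below the filter in both probe sets.

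The class of steroid receptors and estrogen-related receptors held 2 expressed members. NR3C1 encodes the glucocorticoid receptor. Its representative, 216321_s_at, had log2 values of 12.62, 12.76 and 12.64 with anti-miR-21, against 12.87, 12.75 and 12.63 with mock. The groups overlapped (log2 fold change -0.07, 95% interval -0.26 to 0.11). The other 3 expressed NR3C1 probe sets had -0.02, 0.15 and 0.02. ESRRA, the estrogen-related receptor alpha that regulates mitochondrial genes, had 9.51, 9.41 and 9.40 with anti-miR-21, against 9.40, 9.41 and 9.45 with mock (limma adjusted p = 0.870). No probe set of the estrogen receptors ESR1 (9 probe sets) and ESR2 (6), the progesterone receptor PGR (2), ESRRG (2) or the mineralocorticoid receptor NR3C2 (1) reached the filter, the highest being an ESR1 probe set at 3.55.

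NR4A1 is an immediate early receptor induced by many stimuli. Its representative had log2 values of 6.97, 7.02 and 7.07 with anti-miR-21, against 6.76, 6.98 and 6.95 with mock (limma adjusted p = 0.449). Both of its expressed probe sets are of the x_at type, which can cross-hybridise. NR4A2 and NR4A3, its relatives, were below the filter in all 3 probe sets each. Of the other orphan receptors, NR2F1 (COUP-TF I) and NR2F6 had representative log2 fold changes of 0.01 and -0.14, with 95% intervals of -0.33 to 0.34 and -0.30 to 0.02, and all 7 probe sets of NR6A1 were below the filter.

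For the 43 expressed receptor probe sets that did not pass, log2 fold changes ran from -0.32 to 0.43. The 95% intervals, which are not adjusted, had a median half-width of 0.19 over the 46, so changes smaller than that would mostly not be distinguished from 0. Larger changes could also miss the adjusted threshold, as PPARA 223438_s_at did at 0.43. Below the filter, means ran from 1.69 to 3.999. The probe sets closest to the filter were NR3C1 232431_at at 3.999 and PPARG 208510_s_at at 3.94 below it, and VDR 213692_s_at and PPARA 210771_at at 4.17 above it. NR3C1 232431_at had log2 values of 4.29, 4.31 and 4.03 with anti-miR-21, against 4.02, 3.66 and 3.68 with mock. When all probe sets were tested without a filter, none of the 73 passed, and this one had the lowest adjusted p (limma, 0.302).

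The genes that work with the receptors were followed through 7 lists: coregulators, enzymes and carriers that supply ligands, 4 sets of response genes, and the circadian genes that surround the REV-ERB and ROR receptors. Together they named 108 genes, of which 65 were expressed by the same filter. LCOR rose, CYP2R1, PLAAT4 and BMAL1 fell, and 61 did not pass. Thus 1 of 65 was higher and 3 lower, beside 0.913% and 1.22% of all genes (2.13% in either direction). The lists were chosen with earlier results of these data known, so these shares, and those by list below, are descriptive only. The median log2 fold change of the 65 was -0.01, beside -0.02 over all genes. By list, the medians were -0.03 for coregulators, -0.03 for ligand supply, -0.02 for thyroid hormone response, 0.07 for retinoid response, -0.01 for LXR and PPAR response, 0.09 for glucocorticoid response and 0.003 for the clock genes. Of the 65 genes 30 had a positive log2 fold change, against 43.3% of all genes.

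**Figure D4:**
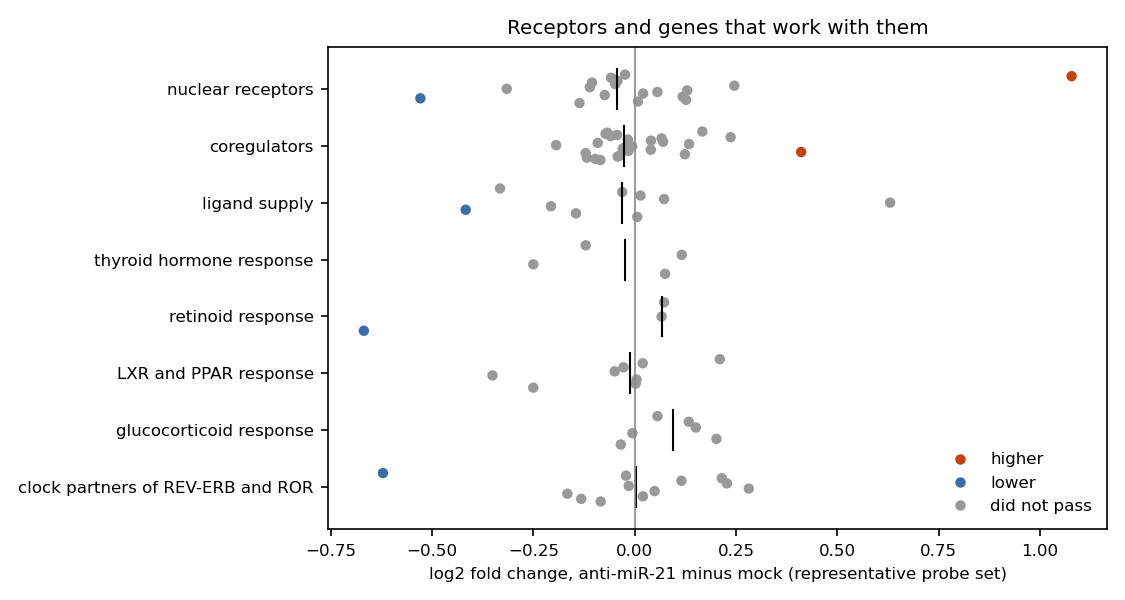
Log2 fold change of anti-miR-21 minus mock for the representative probe set of each expressed gene, for the 19 receptors and the 7 lists, with list medians as black lines. The receptors hold 1 gene that rose and 1 that fell, the lists together 1 that rose and 3 that fell, and some genes stand in more than 1 list.

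BMAL1 encodes the clock transcription factor that pairs with CLOCK, and its promoter is a textbook target of the repressors NR1D1 and NR1D2 (REV-ERB) and the activators RORA and RORB (ROR). The representative of BMAL1, 209824_s_at, had log2 values of 8.70, 8.60 and 8.60 with anti-miR-21, against 9.12, 9.30 and 9.35 with mock. The groups did not overlap, and the fall was 1.54-fold (log2 fold change -0.62 ± 0.074 SE, limma adjusted p = 0.0144). The other expressed probe set, 210971_s_at, named after its values were seen, had 7.33, 7.06 and 7.43 with anti-miR-21, against 7.79, 7.87 and 7.86 with mock (log2 fold change -0.57, limma adjusted p = 0.0407). BMAL1 209824_s_at no longer passed when mock array 2 was omitted (limma adjusted p = 0.0804), or anti-miR-21 array 2 or 3 (0.0720 and 0.0702), and 210971_s_at in no fit that omitted 1 array (0.0656 to 0.151).

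NR1D2, the REV-ERB that had probe sets of its own, had log2 values of 9.49, 9.66 and 9.69 with anti-miR-21, against 9.90, 9.58 and 9.19 with mock in its representative 225768_at. The groups overlapped widely (log2 fold change 0.06, 95% interval -0.35 to 0.47, limma adjusted p = 0.893). All 8 RORA and all 3 RORB probe sets were below the filter, the highest at 2.71 and 3.33. The clock repressors CRY1 and PER2 had log2 differences of 0.28 and 0.23 (adjusted p from limma 0.131 and 0.305). CRY1 passed when mock array 1 was omitted (0.0460), and with all arrays BMAL1 was the 1 of 12 expressed clock genes that passed, beside 2.13% of all genes.

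The promoter of BMAL1 is shown because it is a textbook target of the REV-ERB and ROR receptors. A window of this gene held the letters AAAGTAGGT, searched on both strands, at 2 places, from base -10 and from base 27 relative to the start, and the second runs on into AGGTCA. These 9 letters are those that the 2 BMAL1 stretches below share, so a match in BMAL1 was set in advance. Of all windows 0.157% held AAAGTAGGT, and none of the 89 windows of listed receptors did, while 15 of those 89 held AGGTCA. The shares are descriptive only, and elements written with other letters were not counted. The 2 stretches are chr11:13277770-13277799 and chr11:13277806-13277835 (GRCh38.p14, plus strand), with those 9 letters in capitals.
BMAL1 first copy: gattggtcggAAAGTAGGTtagtggtgcga
BMAL1 second copy: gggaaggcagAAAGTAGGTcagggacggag
A match in letters is a description of the sequence, and binding was not measured.

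Of 26 expressed coregulators, LCOR rose and none fell, where 0.913% of all genes were higher and 1.22% lower. LCOR encodes a corepressor that binds ligand-occupied receptors. It had log2 values of 10.99, 11.06 and 11.08 with anti-miR-21, against 10.74, 10.65 and 10.50 with mock, a rise of 1.33-fold (limma adjusted p = 0.0475), and all anti-miR-21 arrays were higher. Its other probe set, 228454_at, also did not overlap but did not pass (log2 fold change 0.37, limma adjusted p = 0.112). LCOR 226520_at passed in 1 of the 6 fits that omitted an array, the one without mock array 1 (limma adjusted p from 0.0432 to 0.173), and 228454_at passed there too (0.0302). NCOA7, a coactivator, had 0.24 and HDAC3, the deacetylase of the corepressor complex, -0.19 (adjusted p from limma 0.0859 and 0.148).

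Of 9 expressed genes of ligand supply, CYP2R1 fell (1.22% of all genes were lower) and none rose. CYP2R1 encodes the enzyme that makes 25-hydroxyvitamin D, the precursor of the VDR ligand. It had log2 values of 9.21, 9.20 and 9.28 with anti-miR-21, against 9.62, 9.66 and 9.66 with mock. The arrays separated, and the fall was 1.34-fold (log2 fold change -0.42 ± 0.049 SE, limma adjusted p = 0.0138). CYP2R1 227109_at no longer passed when mock array 2 was omitted (limma adjusted p = 0.0804), or anti-miR-21 array 2 or 3 (0.0724 and 0.0564).

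CYP27B1, which completes that ligand, had log2 values of 8.33, 8.68 and 8.56 with anti-miR-21, against 7.90, 7.70 and 8.09 with mock. Its groups did not overlap, but the log2 fold change of 0.63 (95% interval 0.33 to 0.93) did not pass (limma adjusted p = 0.0615). It passed when anti-miR-21 array 1 was omitted (0.0475). RDH10, an enzyme of retinoic acid synthesis, had -0.33 (limma adjusted p = 0.0985). The deiodinases DIO1, DIO2 and DIO3, which activate or inactivate thyroid hormone and were named after their values were seen, were all below the filter.

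Response genes of the receptors passed in 1 case. Of 4 expressed genes in the thyroid hormone response list none passed. CPT1A, the entry step of mitochondrial fatty acid oxidation, had a log2 difference of -0.25, the malic enzyme ME1 0.12 and the corepressor HR -0.12 (adjusted p from limma 0.129, 0.3 and 0.673). The other 7 of the 11 genes named on the array were below the filter.

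Of 3 expressed genes in the retinoid response list, PLAAT4 fell and none rose, beside 1.22% of all genes lower and 0.913% higher. PLAAT4 is a retinoid-induced phospholipase and acyltransferase. It had log2 values of 7.14, 7.14 and 6.92 with anti-miR-21, against 7.75, 7.72 and 7.73 with mock, a fall of 1.59-fold (log2 fold change -0.67 ± 0.072 SE, limma adjusted p = 0.0112). The arrays separated, and PLAAT4 no longer passed when mock array 2 was omitted (0.0623) but passed without each of the other arrays. TGM2, a transglutaminase induced by retinoids, and DHRS3, a retinal reductase, each had a log2 difference of 0.07 (adjusted p from limma 0.589 and 0.6).

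**Figure D5:**
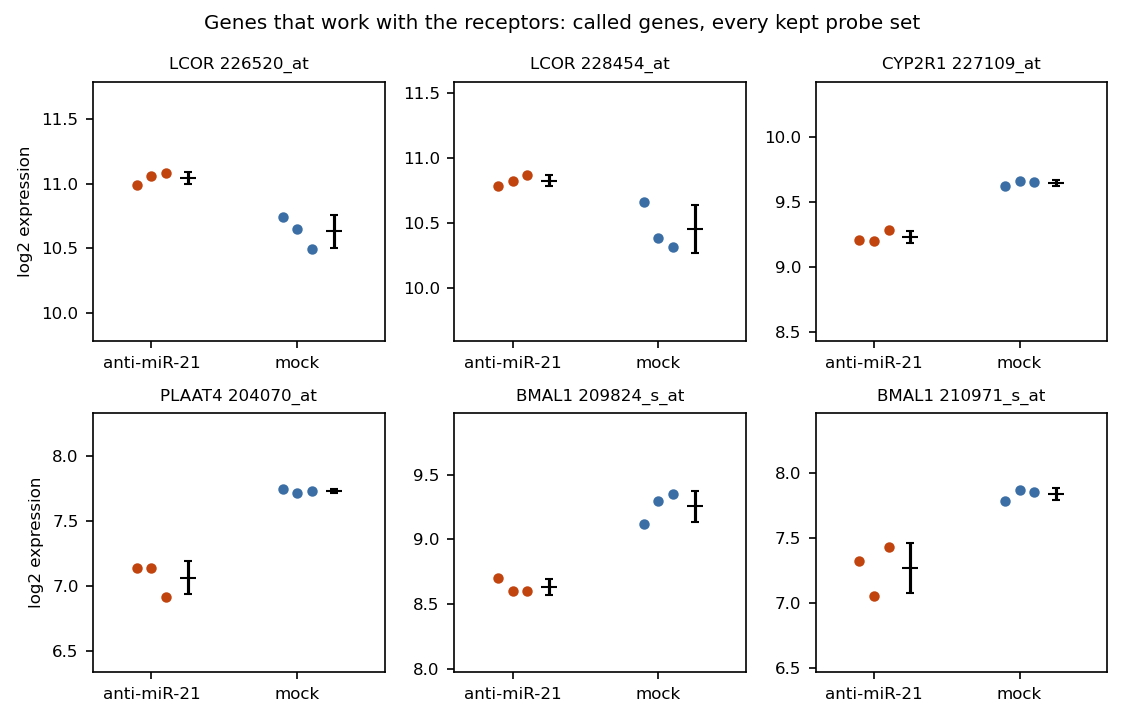
Log2 expression in each array (points), with mean and SD (n = 3) beside them, for every expressed probe set of LCOR, CYP2R1, PLAAT4 and BMAL1, anti-miR-21 left and mock right. Each panel spans 2 log2 units, and the groups separate in all 6 panels, LCOR higher with anti-miR-21 and the other genes lower.

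None of 8 expressed genes in the LXR and PPAR response list passed. ABCA1, a cholesterol exporter, had a log2 difference of 0.21 and SMPDL3A, a phosphodiesterase, -0.35 (adjusted p from limma 0.246 and 0.393), beside CPT1A, which this list shares. None of 6 expressed glucocorticoid response genes passed. NFKBIA, an inhibitor of NF-κB, had 0.20, the phosphatase DUSP1 0.15 and TSC22D3, known as GILZ, 0.13 (limma adjusted p = 0.204, 0.280 and 0.445).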

How the data were processed

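The deposited table holds the authors' log2 values, processed with GCRMA according to the submitters' processing notes. The sources used here name no version or setting of it. The table covers 54675 probe sets on 6 arrays. Gene names came from GEO's platform annotation, and Entrez identifiers were looked up in RefSeq (GRCh38.p14), which held 41043 of the probe sets with 1 gene. Probe sets listing several genes were assigned to none. After removal of 62 control probe sets, those with a mean of 4 or more were tested (22408 probe sets, 10848 genes).

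limma 3.58.1 under R 4.3.3 compared 3 anti-miR-21 with 3 mock arrays (lmFit, eBayes, two-sided, no covariate), with Benjamini-Hochberg adjustment over all tested probe sets. The probe set of highest mean stood for a gene. To test whether probe sets of 1 gene changed differently, each was set against the mean of the gene's others, and Simes p-values per gene were adjusted over 5285 genes. Both steps were tested on simulated data. The labels call the replicates biological but not whether cultures were grown apart, so p-values cover only the spread of these samples, and the number of arrays limits precision. The members and lists were chosen with earlier results of these data known. All 41 receptors were accounted for, and each list is described by its called genes and its 3 genes of smallest p (markers: the 2 of highest mean, with albumin added after values were seen). Alternatives were no filter, a filter of 6, median centring, quantile normalization, trend and robust variances, a replicate block, averaged probe sets, and each array omitted in turn.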

Additional observations from a re-analysis of the deposited data

How the results depend on the processing

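Of the 46 receptor probe sets, the 3 that passed kept their direction under every alternative run. Without a filter 1 receptor probe set was higher, and with quantile normalization 1, against 2; THRB 229657_at then had log2 differences of 0.60 and 0.59 (adjusted p from limma 0.0836 and 0.0583). With 1 array omitted, 0 to 1 receptor probe sets were higher and 0 to 1 lower, 0 to 1 receptor genes higher and 0 to 1 lower, 0 to 2 list genes higher and 0 to 3 lower, and 0 receptor genes moved apart; log2 fold changes were 0.96 to 1.20 for THRB 228716_at and 0.53 to 0.68 for 229657_at. Deviations from the group means of same-numbered arrays correlated at -0.36, -0.27 and -0.002. Those of differently numbered arrays correlated between -0.23 and 0.40. With 3 arrays a group, these values cannot show whether the replicate numbers pair the arrays. With a replicate block, 0 receptor probe sets or genes were higher or lower, 0 list genes were higher or lower and 0 receptor genes moved apart, and 32 genes were called over the whole table, against 231; log2 fold changes in the block fit were 1.08 for THRB 228716_at (limma adjusted p = 0.0514) and 0.60 for 229657_at (0.0841). With a filter of 6, 2 list genes were higher (LCOR and CYP27B1), and 0 receptor genes moved apart, as with trend and robust variances. Without a filter THRB passed the test for moving apart (limma adjusted p = 0.0340), with its dim probe set included, and 0 list genes were higher. With probe sets averaged, 0 receptor genes were lower and 0 list genes higher, and 3 uncalled genes turned sign, to 0.045 for RARA, 0.014 for RXRB and 0.019 for NR3C1. Omitting single arrays turned the sign of 21 uncalled probe sets. The lowest and highest values were ESRRA 1487_at -0.015 to 0.040, NR3C1 201865_x_at -0.035 to 0.0085, RXRA 202426_s_at -0.0048 to 0.012, ESRRA 203193_at -0.028 to 0.043, RARA 203749_s_at -0.14 to 0.048, NR2C2 206038_s_at -0.19 to 0.020, PPARD 208044_s_at -0.032 to 0.016. They were RARB 208530_s_at -0.088 to 0.048, RXRB 209148_at -0.12 to 0.025, NR2F6 209261_s_at -0.026 to 0.087, NR2F1 209505_at -0.11 to 0.15, NR2C1 210530_s_at -0.10 to 0.11, NR2C1 210531_at -0.086 to 0.22, PPARA 210771_at -0.014 to 0.20. The rest gave NR3C1 211671_s_at -0.0014 to 0.025, RXRB 215099_s_at -0.079 to 0.31, RARA 216300_x_at -0.035 to 0.027, NR1D2 225768_at -0.13 to 0.23, NR2C1 229956_at -0.14 to 0.034, PPARD 37152_at -0.18 to 0.0085, HR 241355_at -0.20 to 0.035. The number of arrays limits all of this, and a fit that omits 1 has fewer degrees of freedom. Called genes over the whole table ranged from 38 without mock array 2 to 226 without anti-miR-21 array 1. The causes of these changes were not tested.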

Other observations

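Of the 73 receptor probe sets below the filter, anti-miR-21 array 1 was the lowest anti-miR-21 array in 93.2% and mock array 3 the lowest mock array in 93.2%. The same held for 94.3% (anti-miR-21 array 1) and 89.8% (mock array 3) of all 32205 probe sets below the filter. Among the 46 expressed receptor probe sets the shares were 52.2% for anti-miR-21 array 1 and 37.0% for mock array 3, and among all 22408 expressed probe sets 41.7% and 39.0%.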
